A study of Mus musculus with 16 samples.

Results

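The 10 genes described here carry bile acids across the ileal epithelium or belong to the bile acid signalling route of the ileum. They are Slc10a2, Fabp6, Slc51a, Slc51b, Fgf15, Nr1h4, Nr0b2, Gpbar1, Abcc2 and Abcc3, taken by name from the 41740 genes listed in each count table. All 10 passed the filter on low counts, which left 15267 genes for testing. The list is one of names, and no threshold on a measured value was used to make it.

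RNA from the whole wall of the ileum was sequenced from 16 male mice on a C57BL/6J background, 1 mouse per library. Every mouse was a STAM mouse, a model of diabetes with fatty liver disease and liver cancer made by a low dose of streptozotocin, a toxin of the insulin-producing cells, at 2 days of age and a high-fat diet from 4 weeks. Every mouse also carried floxed insulin receptor alleles (Insr). The Control-STAM-nonINS mice (n = 4), called saline controls, lacked Cre and received saline. The Control-STAM-INS mice (n = 6), called insulin controls, lacked Cre and received insulin by injection 2 times a day from 6 weeks of age. The ieIRKO-STAM-INS mice (n = 6), called ieIRKO mice after their label, carried Villin-Cre, which acts in the intestinal epithelium, and received the same insulin treatment. The methods place the ieIRKO-STAM experiment at 20 weeks of age. For studies at that age they name insulin glargine, in citrate buffer, and insulin degludec, in saline, both raised up to 12 U/kg. Which of them these mice received is not said outright, but the saline of the controls is the diluent named for degludec. Cre in this line spares the muscle, immune and stromal cells of the wall, whose RNA was sequenced together with that of the epithelium.

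Bile acids are made in the liver, released into the duodenum and reclaimed mainly in the ileum. Slc10a2, the apical sodium-dependent bile acid transporter, brings them into the enterocyte, Fabp6 binds them in the cytosol, and the heterodimer of Slc51a and Slc51b releases them toward the portal blood. Inside the cell they activate the nuclear receptor FXR, encoded by Nr1h4, which induces Fgf15, a hormone that travels to the liver and represses bile acid synthesis.

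The stretches upstream of Fabp6, Slc51b and Slc10a2 are shown because Fabp6 carried the only call described below and the other two, also transport genes, passed the test in 1 comparison once a single mouse was left out. They come from RefSeq, build GRCm38.p6, in which 8 of the 10 genes had an entry (not Fgf15 and Abcc3), and cover 250 bases before the start that RefSeq gives, printed along the gene's strand. GENCODE, from which the gene positions below come, places the start farther upstream for some transcripts, so that 182 bases of the Slc51b stretch and 64 of the Slc10a2 stretch lie within the gene as GENCODE draws it, and 0 of the Fabp6 stretch.
Fabp6, chr11:43601563-43601812, minus strand: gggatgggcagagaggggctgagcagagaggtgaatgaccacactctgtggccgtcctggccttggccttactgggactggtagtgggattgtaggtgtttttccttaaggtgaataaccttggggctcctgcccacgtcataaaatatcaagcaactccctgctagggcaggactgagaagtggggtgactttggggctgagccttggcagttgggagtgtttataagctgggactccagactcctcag
Slc51b, chr9:65422774-65423023, minus strand: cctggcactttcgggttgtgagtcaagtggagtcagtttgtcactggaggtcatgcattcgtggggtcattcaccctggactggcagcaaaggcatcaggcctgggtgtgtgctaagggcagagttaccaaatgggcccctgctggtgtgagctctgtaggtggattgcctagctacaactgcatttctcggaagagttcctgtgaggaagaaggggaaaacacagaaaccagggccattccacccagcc
Slc10a2, chr8:5105288-5105537, minus strand: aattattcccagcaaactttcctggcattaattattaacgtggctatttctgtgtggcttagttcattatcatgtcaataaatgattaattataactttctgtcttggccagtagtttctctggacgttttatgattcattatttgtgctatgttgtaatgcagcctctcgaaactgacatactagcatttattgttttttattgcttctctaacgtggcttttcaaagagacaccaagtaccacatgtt

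Library totals ran from 13288018 to 22215382 counts, and an exact two-sided permutation test of the insulin controls against the ieIRKO mice gave p = 0.394. Levels are given as CPM after scaling by the trimmed mean of M values (TMM), and differences as log2 fold changes. The ileal label was checked on genes outside the 10, and Cubn, the ileal vitamin B12 receptor gene, stood at 143 to 1018 CPM while of 7 colon genes Hoxd13, Hoxb13, Aqp8, Car1 and Mptx1 stayed under 2 CPM in every library. The other two, Car4 and B3gnt7, were expressed in every library, at 113 to 373 and 12.2 to 115 CPM. Insr, the targeted gene, had 105 ± 12.3 CPM (SD, n = 4) in the saline controls, 62.7 ± 10.1 (n = 6) in the insulin controls and 67.2 ± 13.4 (n = 6) in the libraries labelled ieIRKO. Its level was no lower with the ieIRKO label than in the insulin controls (log2 fold change 0.10, SE 0.13, adjusted p = 0.805 by edgeR). The count table therefore does not check that label, and the exons that Cre removes are not given in the sources used here. In the insulin controls, Insr fell by 0.75 on the log2 scale against the saline controls (adjusted p = 0.00275).

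Among the 10 genes, a single call was made in 3 comparisons. Fabp6 was lower in the libraries labelled ieIRKO than in the saline controls, at 0.664 times the level. No gene of the 10 passed the test for insulin in control mice, where 10.5% of all tested genes did. None passed for the libraries labelled ieIRKO against the insulin controls, where 0.223% of all tested genes did, and 1 of 10 passed for the ieIRKO mice against the saline controls, where 13.3% did. The test was the quasi-likelihood test of edgeR, with the Benjamini-Hochberg adjustment over all 15267 genes. At an unadjusted p under 0.05 the counts were 0, 1 and 3 of the 10, where 25.4%, 11.3% and 29.4% of all tested genes passed, so these counts were close to or below that share. DESeq2 called 0, 0 and 1 of the 10, and 13.6%, 0.806% and 17.5% of all tested genes. The median log2 fold change of the 10 was -0.03, -0.20 and -0.36 in these 3 comparisons, against -0.00, 0.02 and 0.01 over all tested genes. For a list of 8 epithelial genes described below the medians were 0.21, -0.20 and -0.00, with 1, 7 and 4 of the 8 lower, and the part of these genes in the values of the 10 was not tested. In none of the comparisons did a gene of the 10 have groups without overlap, which 10.6%, 0.845% and 8.56% of all tested genes had. Comparisons that use the same mice are not independent of each other.

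**Figure D1:**
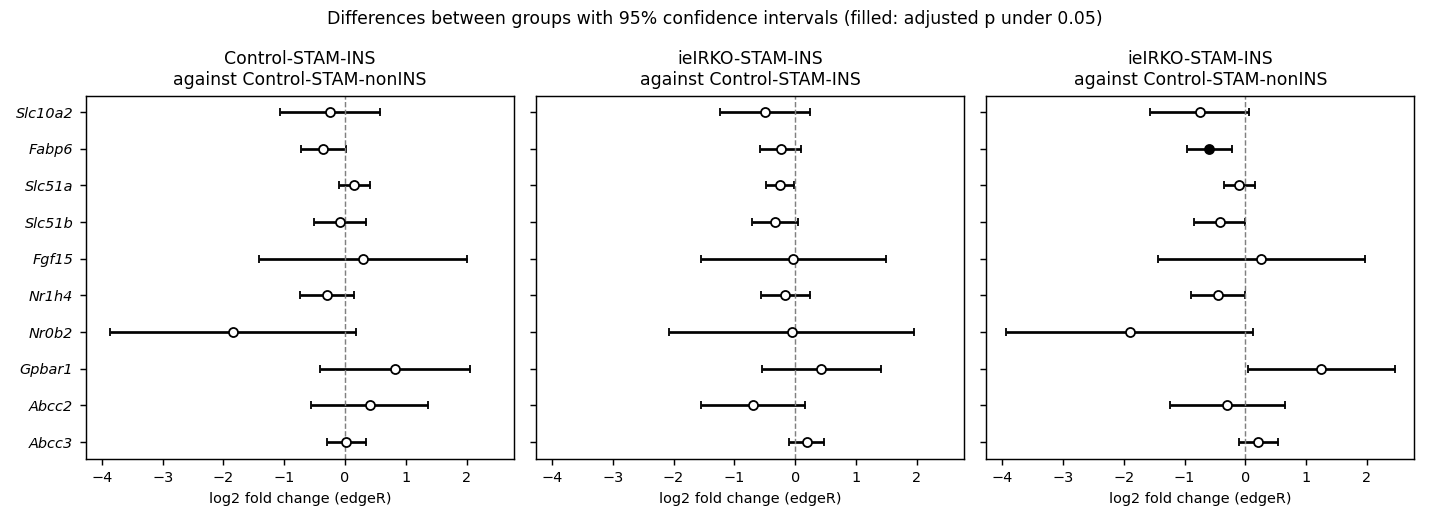
The log2 fold change of each of the 10 genes (horizontal axis) in the 3 comparisons, with 95% confidence intervals from the standard error and degrees of freedom of the edgeR test. The filled point marks the only adjusted p under 0.05, Fabp6 at -0.59 in the ieIRKO mice against the saline controls, and the intervals of Fgf15 and Nr0b2 are the widest of the 10 in each panel.

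Slc10a2 (chr8:5083219-5105351, minus strand, GRCm38) is the uptake step. In the saline controls its level was 1675, 1617, 2041 and 317 CPM. In the insulin controls it ranged from 1043 to 1388 CPM with a median of 1184, and in the libraries labelled ieIRKO from 440.3 to 1172 with a median of 944. One saline control mouse stood far below the other three, whereas the insulin-treated controls lay close together. The 3 lowest ieIRKO mice, at 816, 459 and 440.3 CPM, lay below every insulin control mouse, and the groups overlapped otherwise. The log2 fold change was -0.50 (SE 0.35, adjusted p = 0.623 by edgeR) in the ieIRKO mice against the insulin controls, with a 95% interval of -1.24 to 0.24. An exact two-sided permutation test of this gene alone gave p = 0.0260, before any adjustment. For insulin in control mice the log2 fold change was -0.25 (SE 0.39, adjusted p = 0.747), and for the ieIRKO mice against the saline controls it was -0.75 (SE 0.38, adjusted p = 0.208). Without saline control mouse 4, the one at 317 CPM, the last value became -1.08 (SE 0.26) and passed the test (adjusted p = 0.0144). The value for insulin in control mice became -0.58 without the same mouse (adjusted p = 0.197) and -0.011 without saline control mouse 3. Scaled to the epithelial genes, Slc10a2 was at -0.28 in the ieIRKO mice against the insulin controls and at -0.48 against the saline controls, with no call.

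Fabp6 (chr11:43596049-43601540, minus strand), the ileal bile acid binding protein, was by far the most abundant of the 10. Its level was 5199, 6998, 7844 and 6310 CPM in the saline controls. The insulin control mice ranged from 3742 to 6494 CPM with a median of 5122. In the libraries labelled ieIRKO it ranged from 3265 to 5829 CPM with a median of 4171. The levels stepped down from group to group in their medians, with wide overlap between neighbours. Of the 6 ieIRKO mice, 5 lay below all 4 saline control mice. This difference passed the test, with a log2 fold change of -0.59 (SE 0.18, adjusted p = 0.0338) and a fold of 0.664 with a 95% interval of 0.514 to 0.858. The exact permutation test gave p = 0.0143, where 0.00476 is the smallest it can give with 4 against 6 mice. The 2 steps that make up this difference did not pass by themselves. They were -0.35 (SE 0.18, adjusted p = 0.219) for insulin in control mice and -0.24 (SE 0.16, adjusted p = 0.609) for the ieIRKO mice against the insulin controls.

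The call for Fabp6 depended on single mice. It was lost without saline control mouse 2 (log2 fold change -0.55, adjusted p = 0.0730) or 3 (-0.49, 0.118), and without ieIRKO mouse 2 (-0.51, 0.0672), 4 (-0.57, 0.0544), 5 (-0.55, 0.0641) or 6 (-0.58, 0.0544). The direction held in each of these fits. When all counts were scaled to the sum of 8 epithelial genes instead of TMM, the Fabp6 difference was -0.36 (adjusted p = 0.439) and that between the insulin-treated groups turned to 0.095, while the median of all tested genes moved to 0.26 and 0.38 in these comparisons. Sis, 1 of these 8 genes, had 5242 ± 330 CPM in the saline controls, 2543 ± 944 in the insulin controls and 2670 ± 1669 in the ieIRKO mice. Values scaled to the epithelial genes therefore carry this difference in part when set against the saline controls.

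**Figure D2:**
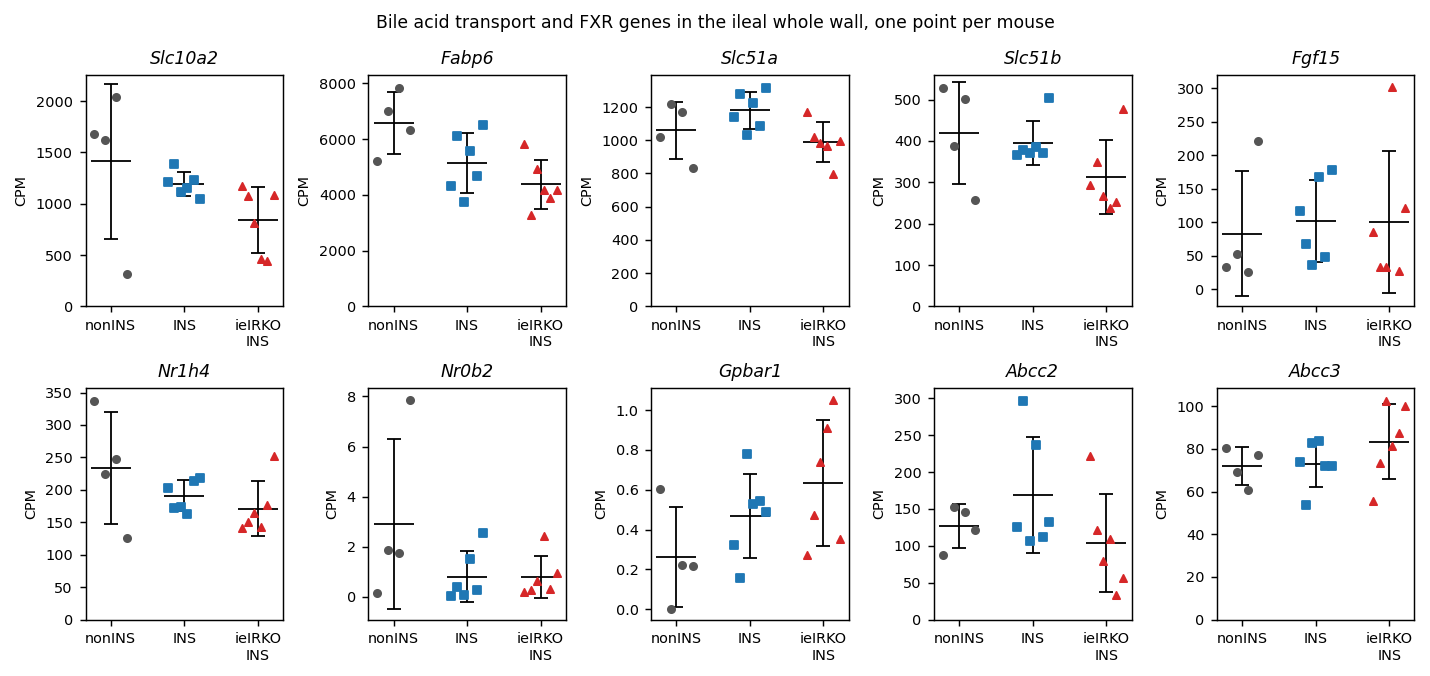
Level of each gene in CPM after TMM (vertical axis, linear) in saline controls (nonINS), insulin controls (INS) and libraries labelled ieIRKO (ieIRKO INS), with 1 point per mouse and the mean with its SD. The single saline control mouse with 317 CPM of Slc10a2 is also the one with 222 CPM of Fgf15, and the ieIRKO mouse with 303 CPM of Fgf15 has 459 CPM of Slc10a2.

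Slc51a and Slc51b encode the 2 subunits of the basolateral exporter. Slc51a (chr16:32474504-32487879, minus strand) had 1017, 1218, 1170 and 834 CPM in the saline controls. It ranged from 1030 to 1317 CPM (median 1182) in the insulin controls and from 798 to 1169 (median 989) in the libraries labelled ieIRKO. All but 1 of the 6 ieIRKO mice lay below every insulin control mouse. The log2 fold change between these groups was -0.25 (SE 0.11), with an unadjusted p of 0.0331 and an adjusted p of 0.392 by edgeR, and the exact permutation test gave p = 0.0195. By edgeR this was the 1 gene of the 10 under an unadjusted 0.05 in that comparison, and it did not pass after adjustment over all genes. The exact permutation tests of Slc10a2 and Slc51b were also under 0.05. That test was run on single named genes, and the share of all tested genes under 0.05 by it was not worked out. Scaled to the epithelial genes the value turned to 0.064. Its within-group spread was small, with a pooled SD of 0.18 on the log2 scale, which is larger than that of 30.9% of tested genes. Against the saline controls, Slc51a differed by 0.15 (SE 0.12, adjusted p = 0.470) in the insulin controls and by -0.10 (SE 0.12, adjusted p = 0.629) in the ieIRKO mice. These values were 0.055 and -0.20 without saline control mouse 4, and 0.24 and -0.018 without saline control mouse 2.

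Slc51b (chr9:65412714-65422955, minus strand) had 529, 387, 502 and 257 CPM in the saline controls. It ranged from 367 to 503 CPM (median 375) in the insulin controls and from 239 to 477 (median 280.2) in the libraries labelled ieIRKO. Here too, 5 of the 6 ieIRKO mice lay below all insulin control mice, and mouse 6 was the exception at 477 CPM. This difference was -0.34 on the log2 scale (SE 0.18, adjusted p = 0.505 by edgeR), and the exact permutation test gave p = 0.0433 before adjustment. Against the saline controls it was -0.08 (SE 0.20, adjusted p = 0.848) for the insulin controls and -0.42 (SE 0.20, adjusted p = 0.171) for the ieIRKO mice. The latter passed the test without saline control mouse 4 (-0.59, adjusted p = 0.0412) or without ieIRKO mouse 6 (-0.58, adjusted p = 0.0375). Scaled to the epithelial genes, Slc51b was at -0.023 against the insulin controls and at -0.15 against the saline controls.

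The subunits were compared within each library as a ratio of counts, which needs no scaling between libraries. The ratio of Slc51a to Slc51b was 2.66 ± 0.639 (SD, n = 4) in the saline controls, 3.00 ± 0.277 (n = 6) in the insulin controls and 3.31 ± 0.749 (n = 6) in the libraries labelled ieIRKO. Exact two-sided permutation tests of the log2 ratio gave p = 0.262 for insulin in control mice, p = 0.494 for the ieIRKO mice against the insulin controls and p = 0.214 for the ieIRKO mice against the saline controls. No difference in the balance of the subunits was detectable. Both genes share exon bases with a gene on the opposite strand, 567 bases with Pcyt1a for Slc51a and 91 with Rasl12 for Slc51b. The library kit keeps strand, but whether the counting used it is not given in the sources used here.

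Fgf15 (chr7:144896531-144900953, plus strand), the ileal hormone of the route, varied more between mice of 1 group than between groups. It had 32.9, 52.5, 26.3 and 222 CPM in the saline controls. In the insulin controls it ranged from 35.9 to 179 CPM with a median of 92.5, and in the libraries labelled ieIRKO from 27.5 to 303 with a median of 59.9. The highest mouse exceeded the lowest 8.42-fold, 4.98-fold and 11-fold in the 3 groups. The group means were 83.4 ± 93.0, 103 ± 61.2 and 101 ± 106 CPM (SD, n = 4, 6 and 6), and the groups overlapped. Of the 6 ieIRKO mice, 3 lay below every insulin control mouse and 1 lay above every one. Insulin in control mice gave a fold of 1.23 (95% interval 0.375 to 4.02, adjusted p = 0.861 by edgeR). For the libraries labelled ieIRKO against the insulin controls the fold was 0.979 (0.342 to 2.80, adjusted p = 0.991), and against the saline controls it was 1.20 (0.368 to 3.93, adjusted p = 0.858). Its exons share 761 bases with those of the antisense gene Gm26793 and 26 with those of the antisense gene Gm39119, both on the opposite strand. The intervals leave room for a change of over 2-fold either way, so equal levels were not shown. Without saline control mouse 4 the log2 fold change for insulin in control mice was 1.47 instead of 0.30 and remained short of the threshold (adjusted p = 0.323), and without saline control mouse 3 it was 0.0079.

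Nr1h4 (chr10:89454234-89533585, minus strand) encodes FXR itself. Its level was 337, 225, 247 and 126 CPM in the saline controls. It ranged from 163 to 219 CPM (median 188) in the insulin controls and from 141 to 252 (median 157) in the libraries labelled ieIRKO. The lowest and the highest mouse of the study were both saline control mice, and the insulin-treated groups lay between them. On the log2 scale the change was -0.29 (SE 0.21, adjusted p = 0.418 by edgeR) for insulin in control mice, -0.16 (SE 0.19, adjusted p = 0.795) for the ieIRKO mice against the insulin controls and -0.45 (SE 0.21, adjusted p = 0.164) for the ieIRKO mice against the saline controls. Without saline control mouse 4 the last value was -0.66 and passed the test (adjusted p = 0.0189), whereas without saline control mouse 1 it was -0.22 and the value for insulin in control mice was -0.061. Scaled to the epithelial genes, the second value turned to 0.21 and the last was -0.11.

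Nr0b2 (chr4:133553376-133556536, plus strand) encodes SHP, a repressor that FXR induces. It was close to the limit of detection, with 2, 24, 31 and 180 counts in the saline control libraries. In the insulin controls the counts were 1, 5, 1, 23, 4 and 52, and in the libraries labelled ieIRKO they were 3, 4, 10, 37, 6 and 16. Libraries with 3 counts or fewer occurred in every group, and the highest library of each group had 180, 52 and 37 counts. The mean level was 2.91 ± 3.40, 0.804 ± 1.01 and 0.792 ± 0.838 CPM (SD, n = 4, 6 and 6). The log2 fold change was -1.85 (SE 0.95, adjusted p = 0.240 by edgeR) for insulin in control mice and -0.06 (SE 0.95, adjusted p = 0.988) for the ieIRKO mice against the insulin controls. For the ieIRKO mice against the saline controls it was -1.90 (SE 0.96, adjusted p = 0.200). Without saline control mouse 4, with its 180 counts, the first of these values shrank to -0.60 (adjusted p = 0.780) and the last to -0.66 (adjusted p = 0.707).

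Gpbar1 (chr1:74278550-74279624, plus strand) encodes TGR5, the bile acid receptor of the cell surface. It had 9, 0, 4 and 5 counts in the saline control libraries, where the 0 allows up to 3 counts. Counts ranged from 2 to 13 in the insulin controls and from 4 to 20 in the libraries labelled ieIRKO, all under 2 CPM. No comparison passed the test, with log2 fold changes of 0.82 (SE 0.59, adjusted p = 0.411), 0.43 (SE 0.47, adjusted p = 0.771) and 1.25 (SE 0.58, adjusted p = 0.155) by edgeR in the order used above. Without saline control mouse 1 the first and the last value became 1.5 and 1.93, and without saline control mouse 2, the library at 0, they became 0.49 and 0.92. At this depth its changes could be resolved only coarsely.

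Abcc2 and Abcc3 encode exporters of conjugated organic anions on the apical and the basolateral membrane, respectively. Abcc2 (chr19:43782192-43840740, plus strand) had 87.1, 153, 146 and 122 CPM in the saline controls. It ranged from 107 to 296 CPM (median 129) in the insulin controls and from 33.7 to 222 (median 94.4) in the libraries labelled ieIRKO. The 3 lowest ieIRKO mice lay below all mice of the other groups, but the highest lay above all saline control mice. Fold changes on the log2 scale were 0.41 (SE 0.45, adjusted p = 0.624 by edgeR) for insulin in control mice, -0.70 (SE 0.40, adjusted p = 0.542) for the ieIRKO mice against the insulin controls and -0.29 (SE 0.44, adjusted p = 0.703) for the ieIRKO mice against the saline controls. Leaving out 1 mouse at a time moved these values to 0.17 at the lowest (without insulin control mouse 2), between -1.07 (without ieIRKO mouse 1) and -0.46 (without insulin control mouse 2), and between -0.67 (without ieIRKO mouse 1) and -0.10 (without ieIRKO mouse 5), with no call in any of these fits.

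Abcc3 (chr11:94343295-94392997, minus strand) had 80.6, 69.1, 60.8 and 77.3 CPM in the saline controls. It ranged from 53.5 to 83.7 CPM (median 73.1) in the insulin controls and from 55.4 to 102 (median 84.6) in the libraries labelled ieIRKO. Its groups overlapped, although 4 of the 6 ieIRKO mice lay above all saline control mice and 3 above all insulin control mice. It was among the steadier genes of the 10, with a pooled within-group SD of 0.26 on the log2 scale. Its log2 fold changes were 0.02 (SE 0.15, adjusted p = 0.947 by edgeR), 0.19 (SE 0.14, adjusted p = 0.630) and 0.21 (SE 0.15, adjusted p = 0.371) in the same order. The 95% interval of the fold for the ieIRKO mice against the insulin controls was 0.937 to 1.39 with TMM scaling, narrower than for Fgf15 or Abcc2. Scaled to the 8 epithelial genes described below, the log2 fold change was 0.58 (adjusted p = 0.220), where the median of all tested genes moved to 0.38.

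Levels of different genes were compared per kilobase of exon. Fabp6 led in every group, at 13753 ± 2336 CPM per kb in the saline controls, 10756 ± 2250 in the insulin controls and 9131 ± 1856 in the ieIRKO mice, and its range did not overlap that of the next gene. Slc51b followed, at 590.5 ± 175, 558 ± 75.1 and 442 ± 126 CPM per kb, apart from the next gene in the insulin controls and overlapping it in the other groups. Slc51a and Slc10a2 came next with overlapping ranges in all 3 groups, at 369 ± 35.1 and 287 ± 28.4 CPM per kb in the insulin controls. Slc10a2 was above Slc51a in the saline controls and below it in the other groups. Nr1h4 lay between these transporters and Fgf15, at 82.9 ± 10.4 CPM per kb in the insulin controls, and overlapped both Slc10a2 and Fgf15 in the other groups. The levels of Fgf15, Abcc2 and Abcc3 followed with overlapping ranges, at means of 12.2 to 32.9 CPM per kb in the ieIRKO mice. Nr0b2 and Gpbar1 closed the order with means under 3 CPM per kb and overlapped each other in each group.

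The spread between mice of a group was itself uneven over the 10 genes. Nr0b2 and Fgf15 had pooled within-group SDs of 1.58 and 1.22 on the log2 scale, larger than those of 99.6% and 99.1% of all tested genes. Gpbar1, with its low counts, followed with 0.74, larger than 95.3%. Slc10a2 had 0.72, larger than 94.9%, and Abcc2 also had 0.72. Fabp6 had 0.29, close to the middle of all genes at 59.9%. The 2 highest Fgf15 levels of the study, in ieIRKO mouse 4 and saline control mouse 4, occurred together with the highest Nr0b2 level of their group. In the same mice Slc10a2 was the second lowest and the lowest of its group, at 459 and 317 CPM.

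Fgf15 was related to 5 other genes of the route over the 16 mice, after the mean of each group was removed from the log2 CPM. With Nr0b2, Pearson's r was 0.71 (permutation p = 0.00428, adjusted over the 5 relations 0.0214) and Spearman's rho was 0.62 (permutation p = 0.0163, adjusted 0.0817). Without the 2 mice farthest from the median of Fgf15, ieIRKO mouse 4 and saline control mouse 4, r was 0.51 (adjusted permutation p = 0.150), so the relation rests in part on those mice. With Slc10a2, r was -0.50 (permutation p = 0.101, adjusted 0.251) and rho was -0.28 (permutation p = 0.307, adjusted 0.512), and r turned to 0.30 without the same mice. The other 3 relations did not pass. For Slc51a r was 0.02 (permutation p = 0.938, adjusted 0.938) and rho 0.18 (permutation p = 0.533, adjusted 0.667). For Slc51b r was -0.24 (permutation p = 0.437, adjusted 0.546) and rho -0.04 (permutation p = 0.908, adjusted 0.908). For Fabp6 r was 0.27 (permutation p = 0.334, adjusted 0.546) and rho 0.35 (permutation p = 0.210, adjusted 0.512). Without the 2 mice, r was 0.63 for Slc51a, 0.48 for Slc51b and 0.48 for Fabp6, each with an adjusted permutation p of 0.150. When also scaled to the epithelial genes, a scale chosen after the data were seen, r was 0.01, 0.16 and 0.17 (adjusted permutation p = 0.971, 0.740 and 0.740).

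The summed level of epithelial genes also varied between mice, and in bulk RNA fewer cells of a type and less RNA per cell cannot be told apart. The sum of 8 epithelial genes (Vil1, Alpi, Anpep, Sis, Cdh17, Epcam, Krt20 and Mttp) was 14187 to 25177 CPM in the saline controls, 18622 to 23676 in the insulin controls and 9397 to 26638 in the libraries labelled ieIRKO. In the ieIRKO mice against the insulin controls, 7 of the 8 genes had lower values and 1 a higher value, with a median log2 fold change of -0.20. Alpi and Anpep each had 5 of 6 ieIRKO mice below all insulin control mice, as Slc51a and Slc51b had. The others of the list had fewer, and Sis had a higher mean in the ieIRKO mice, 2670 CPM against 2543. The lowest sums were in ieIRKO mouse 5 and saline control mouse 4, which were also the lowest of their groups for Slc10a2 and Slc51a. Per 1000 CPM of this sum, Slc10a2 stood at 22.3 in saline control mouse 4 and at 26.6 in ieIRKO mouse 4, and at 44.0 to 89.0 in the other mice. Fgf15 on the same scale stood at 15.6 and 17.5 in those 2 mice and at 1.15 to 8.41 in the others. On this scale, chosen after the data were seen, the relation of Fgf15 to Slc10a2 had r = -0.84 (permutation p = 0.00258, adjusted 0.0117) and rho = -0.70 (permutation p = 0.00734, adjusted 0.0367). Dividing both genes by the same sum can itself change their relation, and its part in this negative value was not tested. Without the same 2 mice r was -0.43 (adjusted permutation p = 0.325), so this relation too rests on them.

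**Figure D3:**
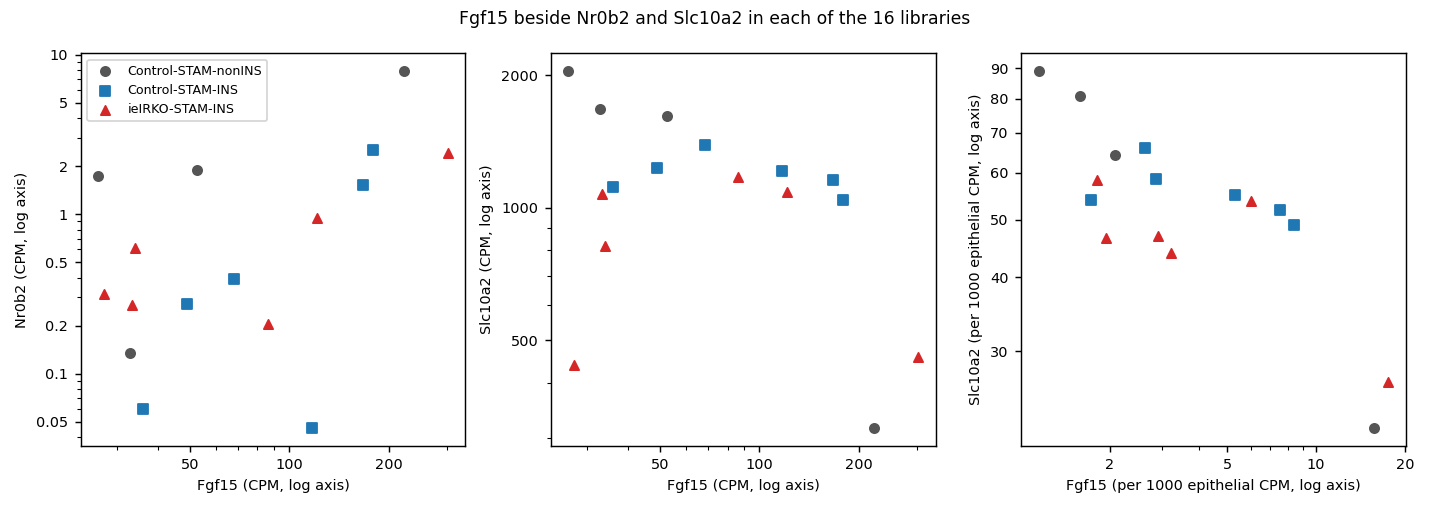
Fgf15 (horizontal axis) against Nr0b2 or Slc10a2 (vertical axis) in the 16 mice, in CPM on log axes in the left and middle panels and per 1000 CPM of the 8 epithelial genes on the right, with 1 point per mouse coloured by group. The 2 points at the far right of each panel are saline control mouse 4 and ieIRKO mouse 4, which stand at 22.3 and 26.6 for scaled Slc10a2 while all others lie between 44.0 and 89.0.

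The genes with the pattern most like that of Fgf15 over the 16 mice, again with group means removed, were Gm26793 (r = 0.93), Eef2, a translation elongation factor (r = 0.89), and Rnase4, a secreted ribonuclease (r = 0.88). Gm26793 is the antisense gene named above that shares exon bases with Fgf15, so its counts and those of Fgf15 may not be separate measurements. For Slc10a2 they were Pmp22 (r = 0.96), Cdc42se2 (r = 0.95) and Krt20, a keratin of mature enterocytes (r = 0.94). These values describe the 16 libraries, and the genes were the highest of all tested.

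A wider list of 28 genes of bile acid sensing, synthesis and transport was described in the same way, of which 20 passed the filter. In the insulin controls against the saline controls 2 of the 20 fell and none rose, against 6.76% and 3.73% of all tested genes. In the libraries labelled ieIRKO against the saline controls 3 fell and none rose, against 7.59% and 5.74% of all tested genes, and against the insulin controls none passed, with 4 of the 20 at an unadjusted p under 0.05 by edgeR, against 11.3% of all tested genes. The median log2 fold change of the 20 was -0.06, -0.26 and -0.12, respectively. Cyp7a1 and Cyp8b1, enzymes of bile acid synthesis in the liver, were at or near 0 in the ileum, as was Klb, the co-receptor for Fgf15, at under 1 CPM.

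Cyp27a1, the mitochondrial sterol 27-hydroxylase of the alternative bile acid pathway, had 79.0, 76.8, 63.3 and 68.2 CPM in the saline controls. It ranged from 33.0 to 46.1 CPM (median 36.2) in the insulin controls and from 18.5 to 43.2 (median 24.9) in the libraries labelled ieIRKO. All 12 insulin-treated mice lay below all 4 untreated mice. It fell by 0.92 on the log2 scale with insulin in control mice (SE 0.18, adjusted p = 0.00470 by edgeR), and the log2 fold change was -1.34 (SE 0.19, adjusted p = 0.000382) for the ieIRKO mice against the saline controls. Between the insulin-treated groups it was -0.42 (SE 0.17, adjusted p = 0.372).

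Fgfr4, the receptor through which Fgf15 acts on the liver, had 15.3, 6.35, 9.17 and 10.6 CPM in the saline controls and 3.65 to 6.04 (median 4.78) in the insulin controls. These groups did not overlap, and Fgfr4 fell by 1.11 on the log2 scale (SE 0.22, adjusted p = 0.00398 by edgeR). In the libraries labelled ieIRKO it lay between, at 5.19 to 9.86 CPM (median 7.01). The log2 fold change against the insulin controls was 0.59 (SE 0.20), with an unadjusted p of 0.00863 and an adjusted p of 0.312, and the exact permutation test gave p = 0.0108. Against the saline controls the value was -0.52 (SE 0.22, adjusted p = 0.118).

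Of the transcription factors in the wider list, Mafg, a repressor that FXR induces in the liver, had 62.0, 67.0, 66.1 and 59.9 CPM in the saline controls and 45.5 to 60.1 (median 49.2) in the libraries labelled ieIRKO. Of the 6, 5 lay below all saline control mice, and the log2 fold change was -0.34 (SE 0.09, adjusted p = 0.0151 by edgeR), but -0.07 (adjusted p = 0.886) when scaled to the epithelial genes. Nr1i3, the nuclear receptor CAR, had 2.48, 1.57, 3.02 and 10.3 CPM in the saline controls and 1.21 to 2.22 (median 1.42) in the libraries labelled ieIRKO. Its log2 fold change was -1.46 (SE 0.43, adjusted p = 0.0314), and the mouse at 10.3 CPM was again saline control mouse 4. Without that mouse it was -0.57 and did not pass (adjusted p = 0.275), and the call was also lost without ieIRKO mouse 2, 4, 5 or 6 (adjusted p = 0.0525 to 0.0624). Partners of FXR did not pass in any comparison. Rxra, with which it dimerises, had 179 ± 15.8 CPM in the saline controls, 184 ± 14.2 in the insulin controls and 172 ± 15.6 in the ieIRKO mice. Hnf4a, an enterocyte and liver factor, had 932 ± 202, 990.0 ± 122 and 899 ± 180.

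**Figure D4:**
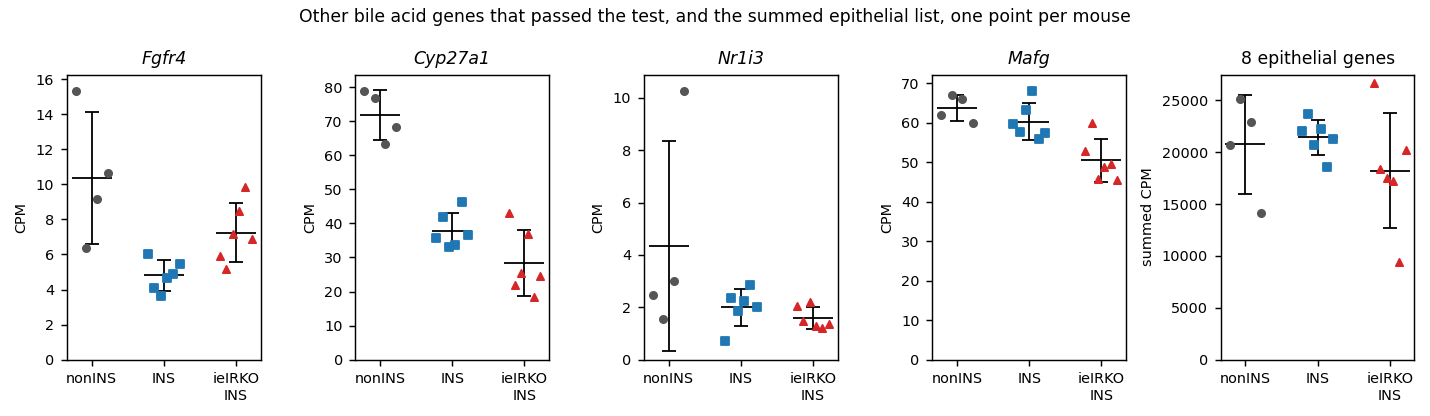
CPM after TMM of Fgfr4, Cyp27a1, Nr1i3 and Mafg and the summed CPM of the 8 epithelial genes (vertical axes, linear, from 0) in saline controls (nonINS), insulin controls (INS) and libraries labelled ieIRKO (ieIRKO INS), with 1 point per mouse and the mean with its SD. All 12 insulin-treated mice lie below the 4 untreated mice for Cyp27a1, whereas the epithelial sum overlaps between groups and is lowest in ieIRKO mouse 5 at 9397 CPM.

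Marker genes of position and of other cells moved with some of these comparisons, and their part in the results was not tested. Of the epithelial list, 0 of 8 genes passed in any comparison by edgeR, with 1, 0 and 1 at an unadjusted p under 0.05. With insulin in control mice 7 of the 8 were higher and 1, Sis, was lower. Sis ranged from 4777 to 5553 CPM in the saline controls and from 1347 to 3821 in the insulin controls, without overlap. Of the distal intestinal genes Cubn, Amn, Pyy and Nts none (0) passed in any comparison, with 1, 0 and 0 at an unadjusted p under 0.05. In the libraries labelled ieIRKO all 4 had lower values than in the insulin controls, with log2 fold changes of -0.36, -0.31, -0.08 and -0.21. Cubn ranged from 533 to 777 CPM in the insulin controls and from 143 to 1018 in the libraries labelled ieIRKO, where its lowest value was in mouse 5, also the lowest of that group for Slc10a2 and Slc51a. Of 7 genes of the proximal small intestine, 5 were tested and 3 passed in both comparisons against the saline controls, where 10.5% and 13.3% of all tested genes did. Fabp1, a fatty acid binding protein, fell by 2.58 (adjusted p = 0.0117) and Cybrd1, an iron reductase, by 0.83 (adjusted p = 0.0441) on the log2 scale with insulin in control mice, while the iron exporter gene Slc40a1 rose by 1.00 (adjusted p = 0.0488). In the libraries labelled ieIRKO the log2 fold changes against the saline controls were -2.26, -0.87 and 1.26. The calls of Cybrd1 and Slc40a1 with insulin were each lost in 8 of the 10 fits that left out 1 mouse (Cybrd1 at -0.61 without saline control mouse 4). In the ieIRKO mice against the saline controls that of Cybrd1 was lost in 6 of 10, and those of Slc40a1 (adjusted p = 0.0503) and Fabp1 (adjusted p = 0.0505) in 1, without saline control mouse 3. The sum of the proximal list was 91.6 to 183 CPM, 97.0 to 144 and 91.4 to 167 in the 3 groups, and its defining gene Pdx1 was at or near 0 in all.

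B cell genes varied within the libraries labelled ieIRKO. The sum of 5 of them was 20.5 to 31.3 CPM in the saline controls, 18.8 to 31.2 in the insulin controls and 24.5 to 420 in the ieIRKO mice, with mice 2 and 3 at 420 and 242 CPM. Of the 5 genes, Cd79a passed against the saline controls (log2 fold change 1.86, adjusted p = 0.0487 by edgeR), a call lost in 7 of the 10 fits that left out 1 mouse, and none passed in the other comparisons, with 5 of 5 at an unadjusted p under 0.05 against the insulin controls (11.3% of all tested genes) and 5 of 5 against the saline controls (29.4%). Without those 2 mice, Cd79a was at 0.66 (adjusted p = 0.124), and Fabp6 in the ieIRKO mice against the saline controls was at -0.54 (adjusted p = 0.0957). Of the smooth muscle genes 0 of 6 passed in any comparison by edgeR, with 1, 0 and 1 at an unadjusted p under 0.05 and a sum of 2253 to 3506 CPM. Of 7 colon genes 3 were tested and 0 passed, with 2, 0 and 1 at an unadjusted p under 0.05 and a sum of 127 to 413 CPM. Pancreatic acinar genes were at or near 0 apart from Cela1, which fell by 0.89 on the log2 scale with insulin in control mice (adjusted p = 0.00420), from 7.22 ± 1.86 to 3.87 ± 0.731 CPM.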

How the data were processed

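RNA from the whole wall of the ileum was sequenced on a NovaSeq from libraries made with a directional kit. The authors deposited 1 table per mouse with the counts of reads on each gene, made with CLC Genomics Workbench 21.0.3 on GRCm38 and not normalized. How reads matching more than 1 gene were counted is not given in the sources used here. All 16 libraries were grouped by their labels, and 36 pairs within groups held no identical tables. The pairs were also compared by a chi-square of their counts over many genes, per degree of freedom. Saline control mouse 4 had 68.7 to 79.0 against the other saline controls, which had 17.2 to 35.2 among themselves. In the ieIRKO group, mouse 5 had 44.5 to 119 against the others, which had 20.2 to 58.1 among themselves.

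Counts were analysed with edgeR 4.0.16 in R 4.3.3. Genes were filtered by filterByExpr (minimum count 10, minimum total 15), scaled by TMM, and fitted with a robust quasi-likelihood model over the 3 groups together, with the Benjamini-Hochberg adjustment. Levels of single mice are CPM, and log2 CPM adds a prior count of 2. Exact permutation tests used log2 CPM and all 210 (4 against 6) or 924 (6 against 6) arrangements. Correlations used 100000 draws within groups. Intervals used the t distribution with the degrees of freedom of the quasi-likelihood test. On simulated counts over 15267 genes, with 200 changed by 1.5 on the log2 scale, 193, 192 and 189 were recovered for insulin in control mice, the ieIRKO mice against the insulin controls and the ieIRKO mice against the saline controls, with 9, 9 and 5 false calls. With a change of 0.5, larger than that of many of the 10 genes, 25, 58 and 47 of 200 were recovered, with 1, 1 and 2 false calls. The changed genes were drawn from those with higher counts, which leaves out Nr0b2 and Gpbar1, and had the spread of genes in general. These rates therefore do not carry over to the more variable of the 10 genes, such as Fgf15 and Slc10a2.

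Gene positions came from GENCODE vM21, where 97.5% of names were found, and upstream sequences from RefSeq. At 13288018 to 22215382 counts per library, 3 counts were taken as the limit of detection, and counting error weighs most on Nr0b2 and Gpbar1. The 10 genes and the other lists were chosen with earlier results of these data known. Genes named outside the 10 are Insr, the genes of each list that passed (or those that mark it), and the 3 most like Fgf15 and Slc10a2. Also named are Rxra, Hnf4a, Klb, Cyp7a1 and Cyp8b1 of the wider bile acid list, which did not pass, and the genes that share exon bases with the 10. Alternatives were other scalings, filters and tests (DESeq2 1.42.0 among them), the replicate number as a block, and leaving out mice. The result of 1 marker gene is not reported here.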

Additional observations from a re-analysis of the deposited data

Results flagged for a closer look

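Within a group, the highest or lowest mouse was set apart when its gap to the nearest other mouse, divided by the range of the group, was above Dixon's 95% critical value. This held for 5 of the 30 groups of values tested (10 genes in 3 groups) on CPM. Chance sets apart about 1 in 20 groups of normally distributed values, and CPM of genes such as Fgf15 is skewed. On log2 CPM 3 groups passed, of which Slc51b in insulin control mouse 6 (0.847) was the only one of the 5, beside the low values of Slc10a2 in saline control mouse 4 (0.875) and Abcc3 in insulin control mouse 2 (0.668). On CPM, Slc51b in insulin control mouse 6 (503 CPM) had a gap of 0.867 of the range. Fgf15 in saline control mouse 4 (222 CPM) had a gap of 0.866, and Fgf15 in ieIRKO mouse 4 (303 CPM) one of 0.659, against 0.677 and 0.382 on log2 CPM, which did not pass. Nr0b2 in the same ieIRKO mouse had a gap of 0.666. Nr1h4 in ieIRKO mouse 6 (252 CPM) had a gap of 0.684. All 5 were high values. The 2 gaps of Fgf15 belong to the mice that stood lowest for Slc10a2 per unit of epithelial RNA.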

How the results depend on the processing

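The call for Fabp6 in the ieIRKO mice against the saline controls held with DESeq2, the likelihood ratio test, 2 other library scalings and 2 other filters, and was lost under the settings named below. The cause of the changes was not tested. Nr0b2 and Gpbar1 had no value under a filter of at least 10 counts in every library, and the depth limits both. The planned test on log values was not run because the files hold counts.

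Scaled to the 8 epithelial genes, the median of all tested genes moved to -0.11, 0.38 and 0.26 for insulin in control mice, the ieIRKO mice against the insulin controls, and the ieIRKO mice against the saline controls. Calls became 315 (42 higher, 273 lower) instead of 1602 (570, 1032), 44 (30, 14) instead of 34 (6, 28), and 375 (233, 142) instead of 2036 (877, 1159). No gene of the 10 was called (0), with Fabp6 at -0.36. Signs turned, short of the threshold, for Fgf15 (-0.11) and Abcc3 (-0.10) with insulin, for Fabp6 (0.095), Slc51a (0.064), Fgf15 (0.23), Nr1h4 (0.21) and Nr0b2 (0.27) in the second comparison, and for Slc51a (0.15) in the last. In the second comparison DESeq2 called 123 genes (65 higher, 58 lower) and the likelihood ratio test 90.

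With the 2 groups alone, the ieIRKO mice against the saline controls had 1038 calls and 0 of the 10 (Fabp6 -0.59, adjusted p = 0.0681). Without ieIRKO mice 2 and 3 it had 1270 calls and 0 of the 10 (Fabp6 -0.54), and against the insulin controls Fgf15 was 0.38 and Nr0b2 0.21. Without saline control mouse 4 and ieIRKO mouse 5 together, added after the data were seen, 2 of the 10 passed against the saline controls, Slc10a2 (-0.94) and Nr1h4 (-0.66), while Fabp6 (-0.57) did not, and against the insulin controls Fgf15 was 0.16 and Nr0b2 0.11.

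The replicate numbers are not stated to mark shared litters or days. Correlations of same-numbered mice ran from -0.09 to 0.18 and were not all above 0.1, so the numbers were not used to pair them. With the replicate number as a block, Nr0b2 passed for insulin in control mice (-2.18, adjusted p = 0.0219; 1 of the 10) and for the ieIRKO mice against the saline controls (-1.95, adjusted p = 0.0249), and Fabp6 did not (-0.59, adjusted p = 0.0847). Under the block Slc10a2 was 0.049 and Abcc3 -0.037 for insulin, and Nr0b2 0.23 between the insulin-treated groups. Calls were 1397, 30 and 1615.

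Leaving out each mouse in turn, insulin in control mice gave 824 to 1877 calls (824 without saline control mouse 1), Slc51b at -0.26 to 0.051 and Abcc3 at -0.045 to 0.098. For the ieIRKO mice against the insulin controls, Fgf15 was -0.77 to 0.20 and Nr0b2 -0.79 to 0.84. Against the saline controls there were 1093 to 2274 calls (1093 without saline control mouse 1) and 0 to 4 of the 10 (4 without saline control mouse 4), with Slc10a2 at -1.08 to -0.51, Fabp6 at -0.69 to -0.49, Slc51b at -0.59 to -0.29, Fgf15 at -0.47 to 1.44 and Nr1h4 at -0.66 to -0.22.

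The relation of Fgf15 to Nr0b2 was 0.51 without the 2 mice farthest in Fgf15, and 0.50 when also scaled to the epithelial genes. That to Slc51b turned to 0.48 and 0.16, and that to Slc10a2 to 0.30, against -0.84 when scaled with all mice.

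Among the called genes outside the 10, Cyp27a1 kept its calls and Fgfr4 its call under every alternative. With epithelial scaling, the calls of Nr1i3, Mafg, Slc40a1, Cybrd1 and Cela1 were lost throughout, as were those of Fabp1, Cd79a and Insr in the ieIRKO mice against the saline controls. The block ended those of Nr1i3 (-1.19, adjusted p = 0.124), Mafg (-0.29, adjusted p = 0.0536), Slc40a1, Cybrd1, Fabp1 and Cd79a.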
